A study of Homo sapiens with 3 samples.

Results

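The upper part of glycolysis and the glucose transporter that feeds it were represented by 10 genes, chosen by name from general knowledge of the pathway: SLC2A1, HK1, HK2, GPI, PFKL, PFKM, PFKP, ALDOA, ALDOC and TPI1. The genes, and the other lists compared below, were chosen with earlier results of these data known. All 10 were found among the 19974 protein-coding genes annotated by RefSeq on chromosomes 1 to 22 and X of GRCh38.p14. MYC occupancy came from 1 deposited list of 9818 peaks, made by ChIP-Rx, in which chromatin of another species is added before the immunoprecipitation as a reference. The study holds 2 libraries of parental U2OS cells, a human osteosarcoma line, immunoprecipitated with an antibody to MYC and labelled as replicates, and 1 input library of the same cells, each with mouse NIH3T3 cells mixed in after fixation with 1% formaldehyde. The peak list holds no expression values, so the identity of the cells was not checked against markers. A peak was given to a gene when its summit lay inside the annotated gene or within 5000 bp of it. By this rule 12 peaks belonged to 8 of the 10 genes, and PFKP and ALDOC had none.

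Glucose enters most cells through the transporter encoded by SLC2A1 (GLUT1) and is trapped by a hexokinase (HK1 or HK2). Glucose phosphate isomerase (GPI), phosphofructokinase (PFKL, PFKM or PFKP), aldolase (ALDOA or ALDOC) and triose phosphate isomerase (TPI1) then turn the hexose into the triose phosphates of the lower pathway. Many tumour cells run this pathway fast even when oxygen is present, and MYC, which binds DNA as a dimer with MAX at E-boxes, is known to activate several of its genes. The hypoxia factor HIF activates many of the same genes through a shorter core motif that lies within the canonical E-box.

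The sequences just before 4 transcript starts are shown first, because they carry the motif pattern described further on, followed by 2 short stretches around single matches. They are RefSeq reference sequence (GRCh38.p14), read 5′ to 3′ along each gene. Capitals mark CACGTG, the canonical E-box, and the related hexamers CACGCG and CATGTG on either strand. HK2 and TPI1 are given at the start whose window held a MYC summit. SLC2A1 had a summit close to its only start but no match, and ALDOC had a canonical match and no peak.
HK2, 250 bases before the start at 74835170, chr2:74834920-74835169, plus strand: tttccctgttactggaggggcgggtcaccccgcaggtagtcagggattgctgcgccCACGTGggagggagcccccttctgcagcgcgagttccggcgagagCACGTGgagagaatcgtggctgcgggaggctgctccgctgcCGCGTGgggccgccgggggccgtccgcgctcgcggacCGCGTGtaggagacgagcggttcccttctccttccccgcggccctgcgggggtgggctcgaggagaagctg
TPI1, 250 bases before the start at 6868105, chr12:6867855-6868104, plus strand: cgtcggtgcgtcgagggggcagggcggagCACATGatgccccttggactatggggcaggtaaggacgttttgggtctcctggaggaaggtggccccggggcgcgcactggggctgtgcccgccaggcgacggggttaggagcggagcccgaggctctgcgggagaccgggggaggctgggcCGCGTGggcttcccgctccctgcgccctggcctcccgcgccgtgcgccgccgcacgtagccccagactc
SLC2A1, 250 bases before the start at 42958868, chr1:42958869-42959118, minus strand: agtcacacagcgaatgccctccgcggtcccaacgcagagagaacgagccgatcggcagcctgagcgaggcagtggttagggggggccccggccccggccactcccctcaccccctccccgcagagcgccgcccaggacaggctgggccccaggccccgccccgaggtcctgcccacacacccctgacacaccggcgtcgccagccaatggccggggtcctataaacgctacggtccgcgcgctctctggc
ALDOC, 250 bases before the start at 28576895, chr17:28576896-28577145, minus strand: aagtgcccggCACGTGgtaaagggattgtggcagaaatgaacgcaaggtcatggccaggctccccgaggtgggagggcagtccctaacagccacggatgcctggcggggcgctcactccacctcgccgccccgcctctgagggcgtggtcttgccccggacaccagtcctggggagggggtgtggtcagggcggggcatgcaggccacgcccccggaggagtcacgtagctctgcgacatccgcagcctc
ALDOA, 30 bases around the only canonical match, chr16:30064373-30064402, plus strand: tggcagggaggcCACGTGatccgagtcccc
PFKL, 30 bases around its only match, chr21:44299876-44299905, plus strand: ctgctcagggccCGCGTGacattgcacagg

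MYC was found close to a transcript start of 7 of the 10 genes, and HK2 had the highest of these peaks. A gene is called bound here when a summit lay within 1000 bp of either annotated end. By that rule 5 genes were bound (SLC2A1, HK2, PFKL, PFKM and TPI1), against 37.6% of all protein-coding genes. The wider rule that assigned the peaks found 8 of the 10 genes, against 47.7% of all protein-coding genes. When every transcript start in the RefSeq promoter table was used in place of the gene ends, a choice made after the values were seen, HK1 and ALDOA were added, giving 7 of 10 against 41.5% of the 15812 protein-coding genes in that table. The count moved with the window, since the nearest summit to an end lay 357 bp away at PFKL, 506 bp at SLC2A1, 605 bp at TPI1, 845 bp at PFKM, 904 bp at HK2 and 1061 bp at ALDOA. PFKL alone was bound within 500 bp, against 33% of all protein-coding genes, while 7 of the 10 were within 5000 bp, against 44%. Counting any base of a peak gave 6 genes (39.3% of all genes) and the 5′ end alone gave 5 (38.8%). Peaks of −log10 q 10 or more, which include all 12 peaks of the pathway, gave 5 genes at an end (37.2% of all genes) and 8 by the wider rule (47.2%). In the stronger 50% of peaks SLC2A1, HK2 and TPI1 were bound at an end (21.3% of all genes), and 5 genes had a summit by the wider rule (27.7%). With 10 genes and no replicate values, these counts are descriptions and were not tested.

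Fold here is the authors' enrichment of IP over control at the summit, a linear ratio. The −log10 q is the authors' statistical significance of the peak after adjustment for multiple testing, which is not a measure of height. Fold and −log10 q have no replicate error, since the list gives no values per library. Over all 9818 peaks the median fold was 7.78 (quartiles 5.58 and 11.5) and the median −log10 q was 47.8. The 12 peaks of the pathway ran from a fold of 3.94 to one of 19.9, around a median of 9.68. The strongest peaks of the 5 genes bound at an end had a median fold of 9.98 and a median −log10 q of 89.3, against 8.31 and 55.9 over the 7510 bound protein-coding genes.

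**Figure D1:**
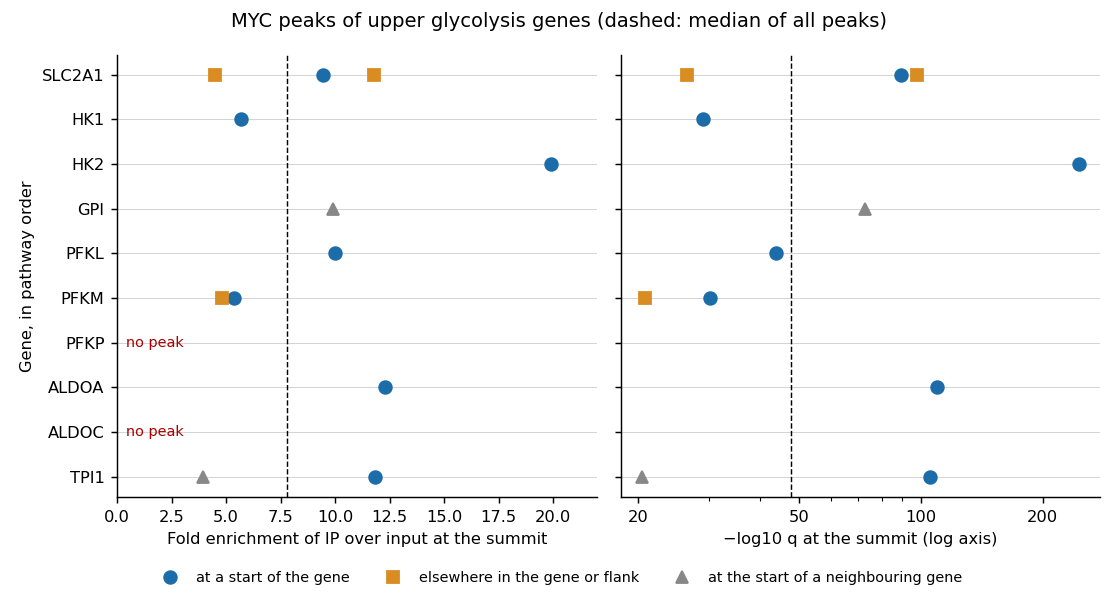
Fold enrichment (left) and −log10 q (right, log axis) of the 12 peaks, with the genes in pathway order and the dashed line at the median of all 9818 peaks; there are no replicate values and so no error bars. HK2 lies alone on the right at a fold of 19.9, SLC2A1, PFKL, ALDOA and TPI1 have a start peak between 9.45 and 12.3, and HK1 and PFKM lie below the median.

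Glucose uptake was represented by SLC2A1 (chromosome 1, 42925353 to 42958868, minus strand), which had 3 of the 12 peaks. The peak over its start (42957811 to 42959203) reached a fold of 9.45, at −log10 q 89.3. Its summit lay 506 bp downstream of the start, inside the gene, and 687 bp upstream of the start of SLC2A1-DT, a divergent noncoding transcript. At 1393 bp it was wider than 92.3% of all peaks.

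The highest SLC2A1 peak was not the one at the start. A peak inside the gene (42936279 to 42936976), 22259 bp downstream of the start, reached a fold of 11.8. The remaining peak (42924133 to 42924700) lay 744 bp beyond the 3′ end with a fold of 4.48, in the lowest 11.3% of the list. The start and internal peaks were therefore close in height, while the 3′ peak was lower than both. Whether the internal site is exonic or intronic was not analysed here.

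The hexokinases, which catalyse the first step of glycolysis, had a high peak at one gene and a low one at the other. HK2 (chromosome 2, 74834127 to 74893359, plus strand), the inducible form that is abundant in many tumours, had 1 peak (74834571 to 74835675) of fold 19.9 and −log10 q 245. That was above 93.0% of all peaks by fold, and of the 7510 bound protein-coding genes only 674 had a higher fold and 562 a higher −log10 q. HK1 (chromosome 10, 69270000 to 69401882, plus strand), the form present in most tissues, had 1 peak (69318163 to 69319439) of fold 5.67 and −log10 q 28.9. The HK1 peak was in the lowest 26.1% of the list by fold, so HK2 and HK1 lay at opposite sides of the median. With no replicate values this difference has no error and no test.

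Both hexokinase genes had more than one annotated start, and in both the summit was nearest to a start inside the gene. The HK2 summit lay 139 bp upstream of the second of 2 starts and 904 bp downstream of the first, which the peak did not cover. HK1 had 7 annotated starts spread along the gene. Its peak covered 2 of them, at 69318181 and 69319064, with the summit 353 bp downstream of one and 530 bp upstream of the other. The first HK1 start, at 69270000, had its nearest summit 48534 bp away, so a rule on gene ends leaves HK1 out. HKDC1, a related hexokinase gene that ends 2448 bp before HK1, had no peak within 5000 bp.

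GPI (chromosome 19, 34359718 to 34402413, plus strand), the isomerase between the hexokinase and phosphofructokinase steps, had no summit inside the gene. Its single assigned peak (34404164 to 34405032, fold 9.91, −log10 q 73.0) lay 2339 bp beyond its 3′ end and 353 bp downstream of the start of the neighbouring gene PDCD2L. The only listed GPI start, at 34364992 and inside the annotated gene, lay 39760 bp from that summit, the closest one. GPI is therefore counted among the 8 genes with a peak only through a summit at another gene's start.

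Phosphofructokinase, the committed step of the pathway, is encoded by 3 genes, of which PFKL and PFKM had a peak and PFKP had none. PFKL, the liver-type subunit (chromosome 21, 44300053 to 44327373, plus strand), had 1 peak (44299468 to 44300710) with a fold of 9.98, and its summit lay 357 bp downstream of its only start. The same PFKL peak stood above 67.3% of the list by fold but above only 46.2% by −log10 q (43.8), so its rank depends on the measure. PFKM, the muscle-type subunit (chromosome 12, 48105353 to 48146404, plus strand), had lower peaks. The one over its cluster of starts (48105601 to 48106403) stood at a fold of 5.38, with −log10 q at 30.1.

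The PFKM start peak was shared with a neighbour. Its summit lay 82 bp downstream of the nearest PFKM start and 119 bp upstream of the nearest start of SENP1, a SUMO protease gene transcribed in the opposite direction. A second PFKM peak inside the gene (48119341 to 48120034, fold 4.83, −log10 q 20.8) lay 2945 bp upstream of the last annotated start, at 48122647. PFKP, the platelet-type subunit (chromosome 10, 3067548 to 3136805, plus strand), had no peak at any of its 4 starts. The nearest summit to PFKP lay 35965 bp beyond its 3′ end, at an end of PITRM1 (fold 9.12). Of all protein-coding genes, 36.9% had their nearest summit at least that far away.

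The aldolases, which split the hexose bisphosphate, fell into one gene with a peak and one without. ALDOA, the form of muscle and many other tissues (chromosome 16, 30064279 to 30070420, plus strand), had a peak (30064196 to 30066071) of fold 12.3 and −log10 q 110. It was the broadest of the 12 at 1876 bp, wider than 98.3% of all peaks, and covered all 3 annotated starts of the gene. Its summit lay 420 bp upstream of the last start and 1061 bp downstream of the first, just too far for ALDOA to count as bound at a gene end. The annotated span of LOC112694756 also runs over this peak.

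ALDOC, the brain form (chromosome 17, 28573120 to 28576895, minus strand), had no peak within 5000 bp. The nearest summit lay 22087 bp upstream of its start, at an end of SPAG5 (fold 3.94), and 42.3% of protein-coding genes had their nearest summit at least that far away. Absence from the list says only that no peak passed the authors' calling there; the lowest −log10 q in the list was 5.00.

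TPI1, which interconverts the triose phosphates (chromosome 12, 6867420 to 6870948, plus strand), is the shortest of the 10 genes. Its start peak (6867391 to 6868250) stood at a fold of 11.8 and at 106 by −log10 q, above 76.5% and 79.1% of the list. The peak covered both annotated starts, and the summit lay 80 bp upstream of the second and 494 bp downstream of the first. A second assigned peak (6872485 to 6873722, fold 3.94, −log10 q 20.5) lay 2425 bp beyond the 3′ end and 70 bp upstream of the start of SPSB2. As at GPI, that peak sat at a neighbour's start.

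**Figure D2:**
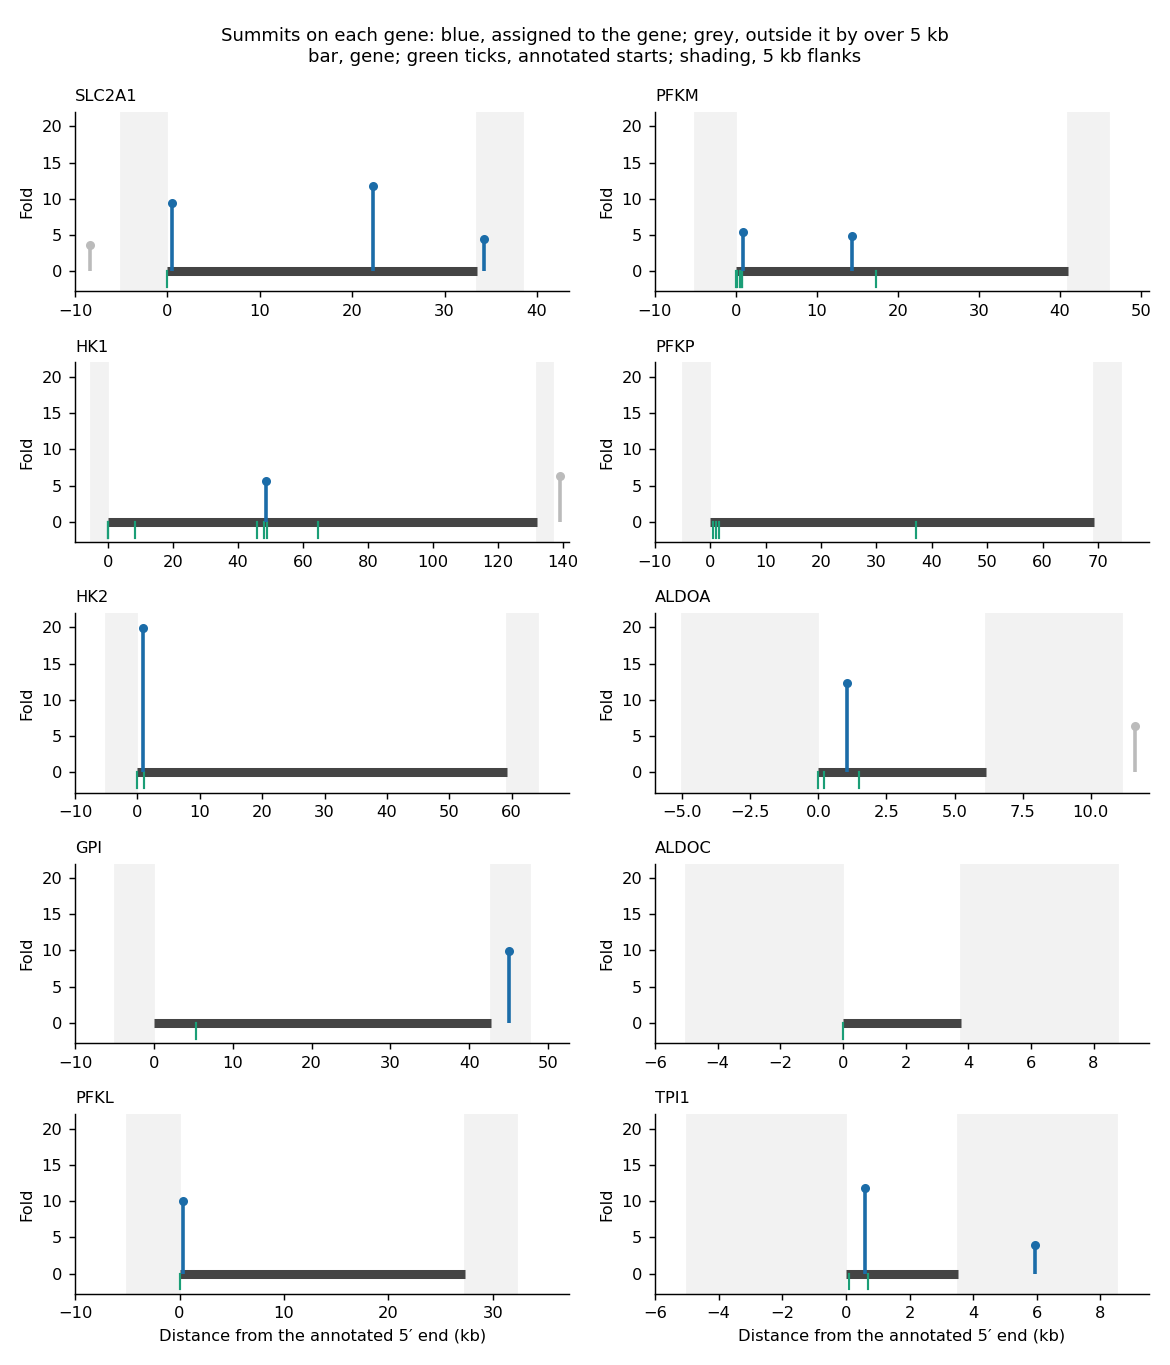
Each panel shows 1 gene along its own direction of transcription, with distance from the annotated 5′ end in kb on the horizontal axis and the authors' fold on the vertical axis; blue stems are summits assigned to the gene, grey stems are summits over 5 kb outside it, green ticks are annotated starts and shading marks the flanks. SLC2A1, HK2, PFKL, PFKM, ALDOA and TPI1 have a stem by the 5′ end. HK1 has its only blue stem in the middle of the gene, GPI only in its 3′ flank, and PFKP and ALDOC have none.

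No assigned summit lay close to the limit of 5000 bp. The assigned summits farthest outside a gene were those of TPI1 at 2425 bp and GPI at 2339 bp. Just beyond the limit lay a summit 5496 bp past ALDOA, at the start of PPP4C (fold 6.43), one 7115 bp past HK1 within TACR2 (fold 6.25) and one 8368 bp upstream of SLC2A1 within SLC2A1-DT (fold 3.60). A flank of 10000 bp left the number of genes with a peak at 8, against 50.9% of all protein-coding genes, and counting summits inside the gene alone gave 7, against 25.9%.

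Over the 10 genes the RefSeq table held 29 transcript starts, of which 16 had a summit within 1000 bp and 14 lay inside a peak. Starts of 1 gene that share a peak are not independent. At the 7 genes with a summit at a start, the summit was often displaced from it. SLC2A1, HK1 and PFKL had it 506, 353 and 357 bp downstream of the nearest start and ALDOA 420 bp upstream, whereas HK2, TPI1 and PFKM had it within 139 bp. Over the 6560 protein-coding genes with a summit at a start, the median distance was 129 bp in either direction, and 21.9% of genes had a summit at 300 bp or farther.

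**Figure D3:**
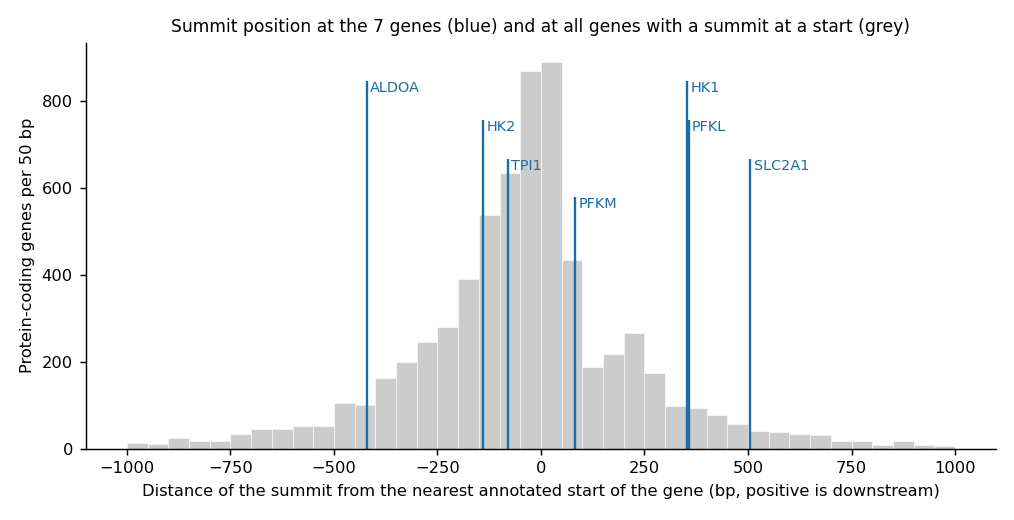
Grey bars count protein-coding genes by the signed distance from the nearest annotated start to the summit of the strongest start peak, in bins of 50 bp (vertical axis, genes; horizontal axis, bp, positive downstream); blue lines mark the 7 genes and their heights carry no value. HK1, PFKL and SLC2A1 lie downstream and ALDOA upstream of the bulk of genes, which is centred at a median of -32 bp.

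At HK2 the summit coincided with a cluster of E-boxes. The window of 300 bases around the second start (250 before to 50 after it) held 2 canonical matches, whose first bases lay 194 and 149 bases before the start, and 2 matches to CACGCG on the other strand, 108 and 71 bases before it. The summit lay 8 bp from the centre of the nearer canonical match and 53 bp from that of the other. In the HK2 sequence above these are the 4 runs of capitals. Windows with 2 or more canonical matches were rare, at 0.849% of all 22132 windows of protein-coding genes and 2.51% of the 3937 windows that held a summit.

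The only other window of the 10 genes that held a summit was the second start of TPI1. It had no canonical match, but a CACGCG match on the other strand had its centre 14 bp from the summit, and a CATGTG match on the other strand lay 139 bp from it. CACGCG occurred in 14.2% of all windows and in 25.7% of those with a summit, and CATGTG in 8.93% and 6.22%. PFKL also had a CACGCG match on the other strand, 165 bases before its start, 520 bp from its summit.

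Canonical E-boxes and peaks did not pair one to one across the 10 genes. CACGTG was found at 3 genes, HK2, ALDOA and ALDOC, in 3 of 29 windows, against 8.34% of all windows and 17.0% of those with a summit. The ALDOA match lay under the edge of its broad peak, 953 bp from the summit. ALDOC had a match 240 bases before its start and no peak. SLC2A1, with a start peak of fold 9.45, had none of the motifs in its window, and none of the 7 windows of PFKM held an E-box hexamer. No match says only that these letters are absent from that window, and the summits of SLC2A1, HK1, PFKL, PFKM and ALDOA lay outside the windows, where sequence was not analysed.

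The HIF core ACGTG, searched on both strands and contained in every canonical E-box, occurred in windows of 7 of the 10 genes: HK2, GPI, PFKM, PFKP, ALDOA, ALDOC and TPI1. It was present in 11 of the 29 windows, against 23.1% of all windows and 35.4% of those with a summit. Of the 11 windows, 3 hold it within a canonical E-box, and overlapping windows at PFKM share 1 match. The share of all genes with the core in any window was not computed, so the count of genes has no background. A gene with more windows has more places for a match. The match at GPI, 162 bases before its listed start, is the only motif of the search in that window. As that start lies inside the annotated gene, the window does not reach the annotated 5′ end of GPI.

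**Figure D4:**
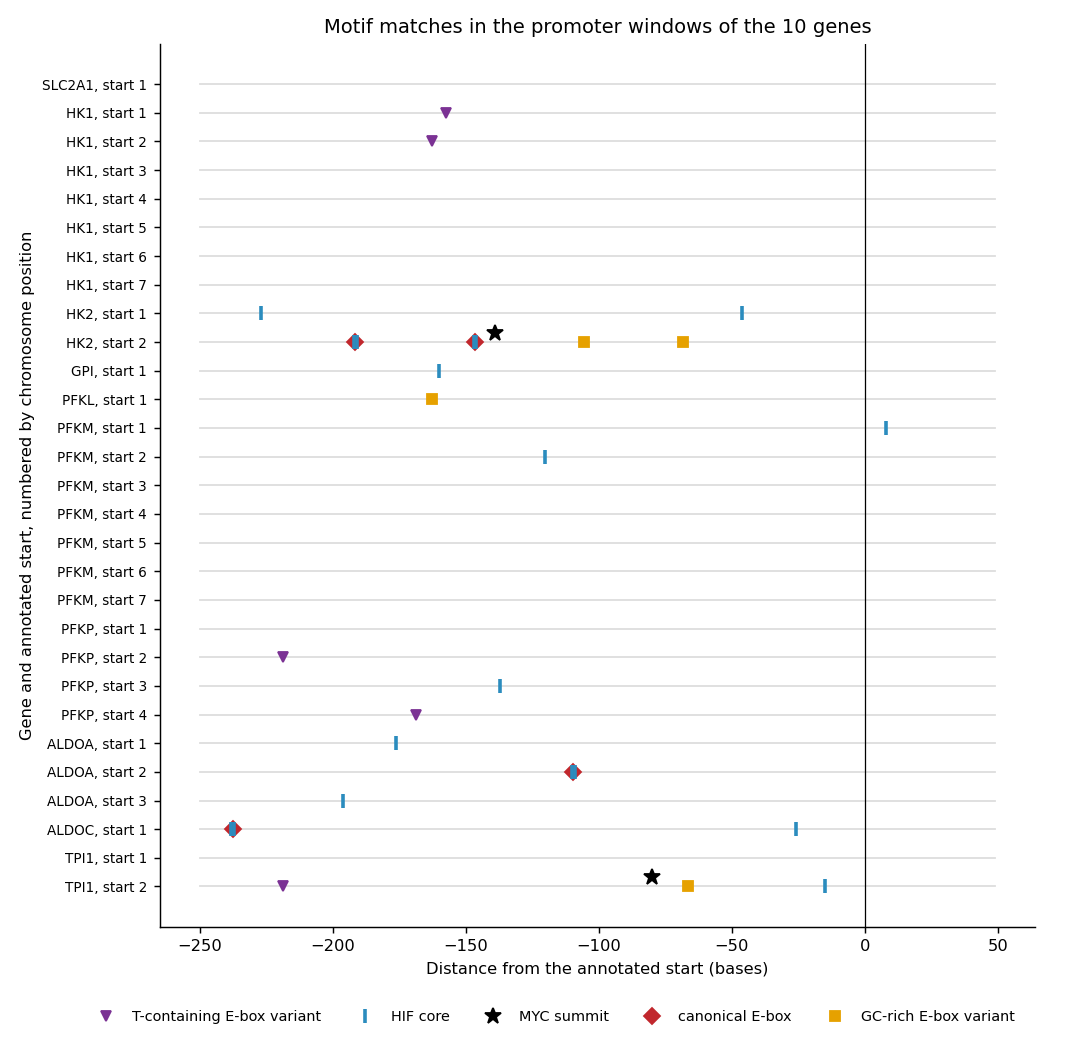
Motif matches in the 29 promoter windows (rows, numbered by chromosome position within a gene; horizontal axis, bases from the annotated start) with MYC summits as stars where they fall in the window. HK2 start 2 holds 2 canonical E-boxes and 2 of the GC-rich variant (CACGCG) around its summit, TPI1 start 2 has the GC-rich variant beside its summit, and the window of SLC2A1 is empty.

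Isoforms that were not among the 10 were compared through a list of paralogs that includes other hexose transporters and hexokinases. Of the 10 genes of that list 3 were bound at a gene end, SLC2A4, the insulin-responsive transporter (fold 11.9), SLC2A8 (6.64) and SLC2A6 (5.87), against 37.6% of all protein-coding genes. SLC2A2, SLC2A3, SLC2A5, HK3 and HKDC1 had no peak within 5000 bp. SLC2A3, the transporter typical of neurons, had its nearest summit 24710 bp from an end. Among the enzymes that set the level of the main activator of phosphofructokinase, 2 of 5 were bound, TIGAR (fold 3.95) and PFKFB3 (5.81), which had 4 peaks in or within 5000 bp of the gene. Both shares, of 30% and 40%, lie near that of all genes by this rule. Within 1000 bp of any transcript start, 41.5% of all protein-coding genes with a listed start had a summit. Of those with a listed start, 2 of 6 paralogs and 3 of 4 of these enzymes did. The start rule added PFKFB4 (fold 3.11) and gave PFKFB3 a stronger peak (9.70). In or within 5000 bp of the gene, PFKFB4 and PFKFB1 had 1 peak each and PFKFB2 none.

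Lower glycolysis and lactate export, the steps after TPI1, had 9 of 10 genes bound at an end, against 37.6% of all protein-coding genes. These 9 had a median fold of 19.1, with ENO1 (59.3) and LDHB (53.1) highest by −log10 q. The 5 bound genes of the upper pathway had a median fold of 9.98, and HK2 alone exceeded 19.1. Within 500 bp of an end, 8 lower and 1 upper genes were bound, against 33% of all protein-coding genes. In the stronger 50% of peaks 9 lower and 3 upper genes were, against 21.3%. By summits within 1000 bp of any transcript start, a choice made after the values were seen, the order of the counts turned round. That rule gave 7 of 10 upper genes and 6 of the 9 lower genes that have a start in the table. The share of all protein-coding genes was 41.5%, and the median folds were 9.98 for the upper and 17.2 for the lower genes. GAPDH and PGAM1 had a summit at a gene end but none within 1000 bp of the start that the table lists for them, which lies inside the annotated gene. As the 2 lists hold 10 genes each and have no replicate values, the difference was not tested. SLC16A3, the lactate exporter of glycolytic cells, was the gene without a summit, 5053 bp from the nearest one.

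**Figure D5:**
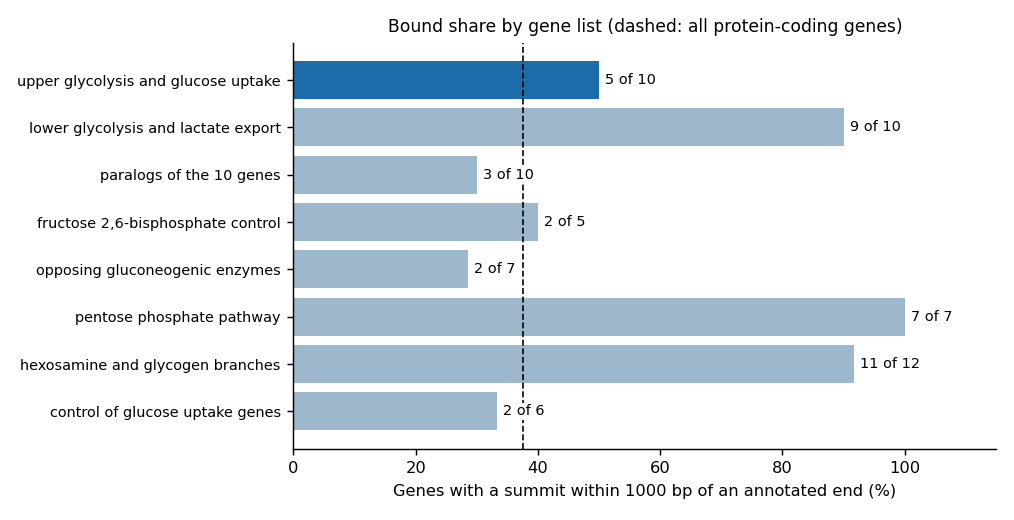
Share of genes with a summit within 1000 bp of an annotated end (horizontal axis, percent) for the 10 genes and for 7 other lists of glucose metabolism, with counts beside the bars and the dashed line at the 37.6% of all protein-coding genes. The 10 genes stand at 5 of 10, the pentose phosphate list at 7 of 7 and the lower glycolysis list at 9 of 10; by any transcript start the upper and lower lists stand at 7 of 10 and 6 of 9.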

How the data were processed

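MYC ChIP-Rx of U2OS cells (2 IP libraries, 1 input) was analysed from 1 deposited peak list on hg38. Per the submitters' processing notes, cutadapt, Bowtie2, SAMtools, Picard and MACS2 were used, with builds hg19, mm10 and hg38. Tool versions and settings, the scaling by mouse reads and any pooling of IP libraries were not given in the sources used here. The authors deposited a fold enrichment (a linear ratio), a −log10 q-value, a −log10 p-value and a score for each peak. Peaks were described by the fold and ranked by the −log10 q-value. No per-library values or depth were analysed, so no replicate error could be computed, and with 1 list no test between samples was possible.

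Summits were assigned to RefSeq genes (GRCh38.p14) with Python 3.11.15 and pandas 2.3.3, and a gene end was called bound within 1000 bp. A gene takes its strongest peak by −log10 q-value. Strand, transcript starts and promoter sequence came from the RefSeq promoter table, which matched all 10 genes. Assignment and motif search were tested on simulated data. Protein identity within gene families and motifs around each summit were planned but not run, as they need sequences not used here. Genes named are all 10 members, their listed paralogs (some not reported here), and in other lists the 2 bound members with the highest −log10 q-value. Neighbours at a peak were named, and some list genes without a peak were named after their values were seen. The members and lists were chosen with earlier results of these data known. Alternatives were windows, flanks, any base of a peak, the stronger 50% of peaks, peaks of −log10 q-value 10 or more, the 5′ end alone and any transcript start.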

Additional observations from a re-analysis of the deposited data

How the results depend on the processing

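Calls at gene ends depended on the window for the 10 genes: with 500 bp only PFKL was bound (1 of 10, against 33% of all protein-coding genes), and with 5000 bp 7 were (against 44%). In the stronger 50% of peaks 3 of the 10 were bound at an end (21.3% of all genes) and 5 had a summit in the gene or within 5000 bp (27.7% of all genes). Among those stronger peaks 1 paralog, 0 genes of the phosphofructokinase activator list and 1 gluconeogenic gene were bound at an end. So were 4 pentose phosphate genes and 3 hexosamine and glycogen genes. The 9 bound genes of lower glycolysis and lactate export and the 2 bound genes that control glucose uptake all stayed bound. With those fewer peaks the share of all protein-coding genes bound at an end also fell, from 37.6% to 21.3%. Why some lists fell and others did not was not tested. For the 500 bp window, the distances given above show which of the 10 genes dropped out. Of 49 alternative values 41 stayed within 1.5 times the main one, among them each median fold (9.98). Among the genes bound at an end SLC2A1 alone had a choice of peaks, so the choice of peak could hardly move that median. No paired analysis was possible because the list gives no values per replicate, and leaving out a replicate was not possible for the same reason. Depth is unknown, so an absent peak at PFKP or ALDOC limits no level. Motif windows around summits were not run.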

Other observations

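The routes that leave the upper pathway were bound at most of their genes, mainly at low folds. All 7 pentose phosphate genes had a summit at a gene end, against 37.6% of all protein-coding genes, with a median fold of 6.29. PGD, the second dehydrogenase of the pathway (fold 11.4), and TKT, a transketolase (9.79), were highest by −log10 q, and TALDO1 had a −log10 q of 7.88. Of 12 genes of the hexosamine and glycogen branches 11 were bound, with a median fold of 5.62, with GNPNAT1, an acetyltransferase of hexosamine synthesis (fold 11.7), and UGP2, which makes the glucose donor for glycogen (8.22), highest by −log10 q. GFPT2 was the gene without a summit at an end.

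Among the enzymes that oppose glycolysis, 2 of 7 were bound at a gene end, against 37.6% of all protein-coding genes. They were G6PC3, a widely expressed glucose phosphatase (fold 91.9, −log10 q 1726), and PCK2, the mitochondrial phosphoenolpyruvate carboxykinase (9.61). FBP1, FBP2, G6PC1, G6PC2 and PCK1 had no peak within 5000 bp. Of 6 genes that control glucose uptake, 2 were bound at a gene end, against the same 37.6%. They were MLXIP (fold 18.7) and HIF1A, the hypoxia factor subunit (6.87). TXNIP, which restrains glucose uptake, had its nearest summit 55436 bp from an end. TPI1 and ENO2 lie 43632 bp apart on chromosome 12, with folds of 11.8 and 8.07 at their ends. These counts are descriptions and were not tested.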
